A study of Mus musculus with 24 samples.

Results

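The genes described here encode the machinery that brings newly made proteins into the endoplasmic reticulum (ER) and carries them on in coated vesicles. The set holds 40 genes, taken from a list of names: every non-control probe whose gene name in the array files was on the list was a member. These were 77 of the 56605 probes and 40 of the 36610 named genes on the array, and 24 of the genes had more than 1 probe. The rule itself uses names only, but the list was drawn up with earlier results of these data known.

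RNA was measured in the inguinal (#4) mammary gland, freed of its lymph node, of female C57BL/6 mice. All groups were homozygous, either for the wild-type allele or for the R96C knock-in allele of SOCS2, a feedback inhibitor of cytokine and growth hormone signalling. Virgin glands were taken at 8 weeks, from 7 wild-type and 7 R96C knock-in animals, and pregnant glands on day 18 of gestation, from 5 animals of each genotype. The labels used here give no age for the pregnant mice, so pregnancy and age cannot be told apart. The allele is present in every cell of the knock-in animals, and the arrays do not read the changed base, so genotypes rest on the labels. Each array carried RNA from a different animal, and the number of arrays limits the precision of every value.

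A protein bound for secretion is recognised by its signal peptide while still on the ribosome. The signal recognition particle takes ribosome and chain to a receptor on the ER, the chain passes through the Sec61 channel, signal peptidase removes the signal peptide, and oligosaccharyltransferase adds sugars. COPII-coated vesicles then carry cargo from the ER towards the Golgi, and COPI-coated vesicles return escaped ER proteins and membrane; the milk proteins of the alveolar epithelium take this route in late pregnancy and lactation.

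Signals are on the log2 scale with the 75th percentile of their own array subtracted, differences are given with their standard error, and a gene was called where limma's Benjamini-Hochberg adjusted p, over the 22382 genes tested, was under 0.05. Of 59305 non-control spots, between 33374 and 43055 were well above background on 23 arrays and 57003 on the array of mouse 376, a knock-in virgin; its negative-control signal was 331.527 against 41.389 or less elsewhere. Every member was measured above background on all 24 arrays. Between the stages 6 of 6 milk protein markers rose in both genotypes, and 6 of 6 fibroblast and 5 of 5 macrophage markers fell. Luminal markers rose in 5 of 10 in wild type and 7 of 10 in the knock-in, and white adipocyte markers fell in 5 of 8 in both. The mean of the luminal list was 0.05 to 2.16 in wild-type virgins and 3.14 to 3.66 in wild-type day-18 mice, and that of the adipocyte list 5.80 to 6.17 and 4.42 to 4.88. In the knock-in the luminal mean was −3.41 to 1.83 and then 3.30 to 3.86, and the adipocyte mean 4.33 to 6.23 and then 3.19 to 4.83. In whole tissue, fewer cells of a type and less RNA per cell cannot be told apart, and the part of these shifts in the members' differences was not tested.

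Between virgin glands and pregnancy day 18, most members were called higher. In wild-type mice 26 of the 40 were higher, 1 was lower and 13 were not called, with a median difference of 0.78; over all genes tested 41.8% were called, 20.9% higher and 20.9% lower, and the median was 0.01. In knock-in mice 27 were higher, 1 was lower and 12 were not called, with a median of 0.83, against 43.2% of all genes called, 22.9% higher and 20.3% lower, and a median of 0.05 over all genes. The same 26 genes were higher in both genotypes and the same single gene, Sec23a, was lower in both. With all 24 arrays and 1 probe standing for each gene, oligosaccharyltransferase was the only step in which every member rose. The COPII coat had the fewest, 1 of 7. Without mouse 376, 36 members were called in wild-type mice and 28 in the knock-in, against 57.3% and 55.3% of all genes. Srp14, Sec62, Ssr3, Spcs1, Sec24d, Sec31a, Copa, Copb1 and Kdelr2 were then also called higher in wild type. In wild type every member was then called higher in all steps but the Sec61 channel and the COPII coat. The contrast between steps in calls thus depends on that array. Calls given below are those of all 24 arrays unless stated.

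The direction of these differences is relative to the bulk of the genes on each array. Scaling to 7 spike-in probes brought the median of all genes to −0.91 in wild type and −0.78 in the knock-in. The median of the members became −0.14 and −0.00 with only 10 and 8 called. Subtracting 1 value per array moves every gene alike. The members' distance from the median of all genes, 0.77 in wild type and 0.78 in the knock-in, therefore cannot change under such a scaling. Scaling to each array's median brought the median of all genes to 0.19 and 0.25. The differences thus moved up and not down, yet only 11 members were called in each genotype. Unscaled array medians ran from 1.31 to 3.23 on the log10 scale. The unscaled 75th percentile was 3259.01 for mouse 376 and 804.37 or less on every other array. The part of that array in the lost calls was not tested. Sec61b, Ssr2, Ssr4, Spcs2 and Sec23b were called higher in both genotypes under each of the 40 alternative settings run.

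**Figure D1:**
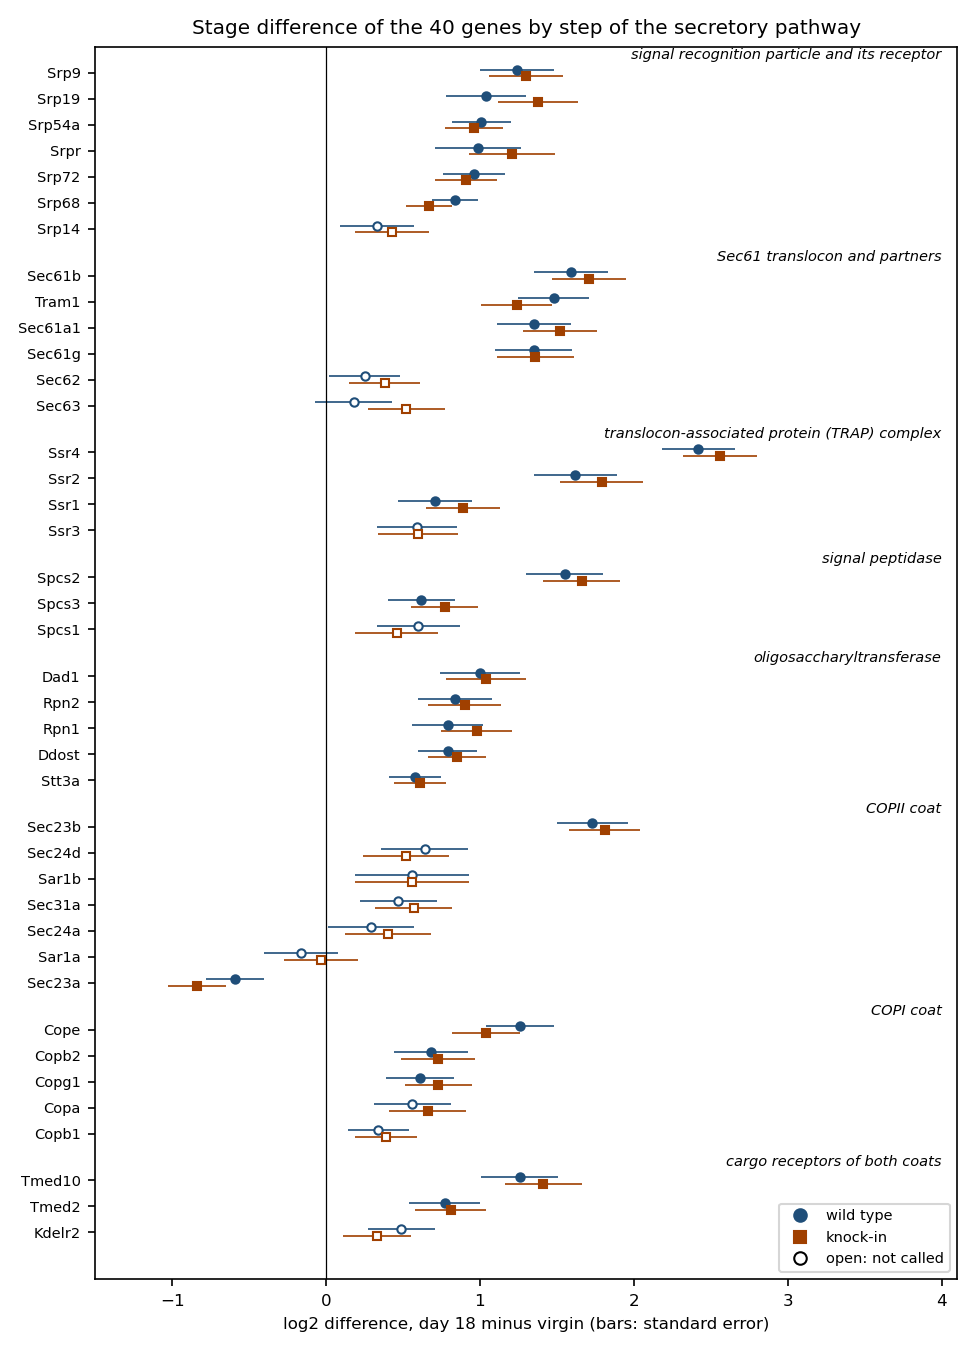
Difference between day 18 and virgin glands (log2, x axis; bars are standard errors) for each of the 40 genes, grouped by step, in wild type (circles) and knock-in (squares); open symbols were not called. Ssr4 lies farthest to the right at 2.42 and 2.56, and Sec23a is the only called gene to the left of 0.

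The signal recognition particle and its receptor were mostly higher at day 18: 6 of 7 members rose in each genotype. Srp9, a subunit of the Alu domain that pauses translation, rose most in wild type. Its signals in wild-type virgins ran from 3.39 over a median of 3.52 to 3.71, and the wild-type day-18 arrays read 5.24, 4.42, 5.02, 4.68 and 4.57. The groups did not overlap, and the difference was 1.24 ± 0.24 (2.36-fold, limma adjusted p = 2.17e-04). Knock-in virgins ran from 1.82 over 3.45 to 3.66 and knock-in day-18 mice read 4.67, 4.75, 4.61, 4.17 and 4.64, a difference of 1.30 ± 0.24 (adjusted p = 1.24e-04), again with no overlap. The lowest of the virgin values, 1.82, was that of mouse 376.

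Srp14, the partner of Srp9 in the Alu domain, was the one member of this step that was not called. Its group means were 3.97 ± 0.16 (SD, n = 7) and 4.30 ± 0.20 (SD, n = 5) in wild type, a difference of 0.33 ± 0.24 with limma adjusted p = 0.297, and the groups overlapped. In the knock-in the difference was 0.43 ± 0.24 (limma adjusted p = 0.168). Srp19, which helps the RNA of the particle to fold, rose by 1.04 ± 0.26 in wild type and 1.38 ± 0.26 in the knock-in. Srp54a encodes the GTPase that binds signal peptides; it rose by 1.01 ± 0.19 and 0.96 ± 0.19, but its probe also lists transcripts of the near-identical Srp54b and Srp54c, so the copies cannot be told apart. Srp68 and Srp72, which form a heterodimer on the RNA, rose by 0.84 ± 0.15 and 0.96 ± 0.20 in wild type. Srpr, the subunit of the receptor that meets the particle on the ER, rose by 0.99 ± 0.28 in wild type and 1.21 ± 0.28 in the knock-in.

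The channel itself rose as a unit. All 3 subunits of the Sec61 pore were higher at day 18 in both genotypes, by 1.35 to 1.59 in wild type and 1.36 to 1.71 in the knock-in, while Sec62 and Sec63, which serve mainly chains that enter after translation, were not called in either. Sec61b, the beta subunit, moved most. In wild-type virgins its signal ran from 4.55 over a median of 4.92 to 5.09, and at day 18 it was 6.82, 6.10, 6.74, 6.37 and 6.33. Every day-18 value lay above every virgin value, and the difference was 1.59 ± 0.24 (3-fold, limma adjusted p = 1.63e-05). Knock-in virgins ran from 3.11 over 4.65 to 5.18 and day-18 mice read 6.13, 6.30, 6.25, 5.72 and 6.51, a difference of 1.71 ± 0.24 (adjusted p = 5.81e-06). Sec61a1, the pore-forming subunit, rose by 1.35 ± 0.24 and 1.52 ± 0.24, and the small subunit Sec61g by 1.35 ± 0.25 and 1.36 ± 0.25. Tram1, a membrane protein that sits by the entering chain, rose by 1.48 ± 0.23 in wild type and 1.24 ± 0.23 in the knock-in.

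Sec63, the membrane J-protein that recruits the chaperone BiP to the channel, had the smallest difference of this step. The probe that stands for it was 1.65 ± 0.20 (SD, n = 7) in wild-type virgins and 1.83 ± 0.28 (SD, n = 5) at day 18, a difference of 0.18 ± 0.25 (limma adjusted p = 0.602). Its other probe (chr10:42543733-42547689 in mm9, beside chr10:42550120-42550179 for the first) rose by 1.32 ± 0.17 in wild type and 1.40 ± 0.17 in the knock-in (limma adjusted p over all probes kept = 2.45e-06 and 9.74e-07). The call on Sec63 therefore depends on the probe. Of the 22 members with more than 1 probe kept, 13 had the same call on all of them in wild type and 10 in the knock-in, and none had probes called in opposite directions. Over all 73 member probes kept, 39 were higher and 1 lower in wild type and 44 higher and 1 lower in the knock-in, beside 38.9% and 39.5% of all probes called in either direction.

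The translocon-associated protein (TRAP) complex lies beside the channel and assists the entry of some signal sequences. It held the largest difference of all members. Ssr4, its delta subunit, was probed at chrX:71036112-71036171 (mm9). Wild-type virgins lay within 4.26 and 4.60, with a median of 4.41, and wild-type day-18 arrays read 7.30, 6.38, 7.0, 6.66 and 6.91. Every day-18 value lay above every virgin value, and the difference was 2.42 ± 0.24 (5.37-fold, limma adjusted p = 4.56e-08). In the knock-in, virgins ran from 2.70 over 4.36 to 4.62 and day-18 mice read 6.62, 7.06, 6.69, 6.43 and 6.63, a difference of 2.56 ± 0.24 (5.89-fold, adjusted p = 1.95e-08). Ssr2, the beta subunit, rose by 1.62 ± 0.27 and 1.79 ± 0.27, and Ssr1, the alpha subunit, by 0.71 ± 0.24 and 0.89 ± 0.24 with overlapping groups. Ssr3, the gamma subunit, was not called, with differences of 0.59 ± 0.26 and 0.60 ± 0.26 (limma adjusted p = 0.0782 and 0.0723). Its other probe was called higher in the knock-in at 0.78 ± 0.20 (limma adjusted p over all probes kept = 0.0028). In wild type that probe was not called, at 0.40 ± 0.20. The members of 1 complex thus differed by amounts from 0.59 to 2.42 in wild type.

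In signal peptidase the wild-type differences ran from 0.60 to 1.55. Spcs2, a non-catalytic subunit, read 1.60 to 2.15 (median 1.91) in wild-type virgins and 3.94, 3.0, 3.84, 3.30 and 3.34 at day 18, a difference of 1.55 ± 0.25 (2.93-fold, limma adjusted p = 3.44e-05). The knock-in virgins ran from 0.31 over 1.57 to 2.44, below all day-18 values of 3.17, 3.52, 3.23, 2.83 and 3.34, and differed by 1.66 ± 0.25 (adjusted p = 1.40e-05). Spcs3, an accessory subunit needed for cleavage, rose by 0.62 ± 0.22 and 0.77 ± 0.22. Spcs1, a small accessory subunit, was not called, with 0.60 ± 0.27 in wild type (means 4.48 ± 0.20 SD and 5.09 ± 0.25 SD; limma adjusted p = 0.0784) and 0.46 ± 0.27 in the knock-in.

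Oligosaccharyltransferase, which transfers a preassembled glycan to asparagines of the entering chain, rose in all 5 members in both genotypes, by 0.58 to 1.00 in wild type and 0.61 to 1.04 in the knock-in. Dad1, a small membrane subunit, rose most: wild-type virgins ran from 3.92 over 4.03 to 4.34 and day-18 mice read 5.5, 4.67, 5.37, 4.76 and 4.93. The 2 groups did not overlap, and the difference was 1.00 ± 0.26 (2-fold, limma adjusted p = 0.0029). Knock-in means were 3.68 ± 0.69 (SD, n = 7) and 4.72 ± 0.29 (SD, n = 5), a difference of 1.04 ± 0.26. Stt3a, the catalytic subunit that works alongside the channel, rose least, from −0.61 ± 0.19 (SD, n = 7) to −0.03 ± 0.39 (SD, n = 5) in wild type, by 0.58 ± 0.17 (limma adjusted p = 0.0075), with overlapping groups. Rpn1, Rpn2 and Ddost, structural subunits of the complex, rose by 0.79 ± 0.23, 0.84 ± 0.24 and 0.79 ± 0.19 in wild type. The other probe kept for Rpn2, a dim one, differed by −0.03 ± 0.52 in wild type. With the probes kept for a gene averaged, Rpn2 and Stt3a were not called in wild type, nor Stt3a in the knock-in.

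The COPII coat did not move as a unit. Of its 7 members, 1 was higher, 1 lower and 5 were not called, in each genotype. The 2 that were called are paralogs, Sec23a and Sec23b, interchangeable as the inner-coat subunit that activates the GTPase Sar1. Sec23b (probe at chr2:144416111-144416170, mm9) read 1.72 to 2.09 with a median of 1.87 in wild-type virgins and 4.43, 2.99, 4.25, 3.22 and 3.15 at day 18. It rose by 1.73 ± 0.23 (3.32-fold, limma adjusted p = 3.20e-06), and mice 206 and 233 stood above the other 3 at day 18. In the knock-in it went from between 0.88 and 2.04 (median 1.72) to 3.57, 3.70, 3.24, 3.26 and 3.33, by 1.81 ± 0.23 (adjusted p = 1.54e-06). Sec23a (probe at chr12:60060275-60060334, mm9) went the other way. Wild-type virgins ran from −1.39 over −1.29 to −0.84, and day-18 mice read −1.60, −1.67, −1.88, −1.96 and −1.90, all lower. The difference was −0.59 ± 0.19 (1.5-fold lower, limma adjusted p = 0.0144). Knock-in virgins ran from −1.40 over −1.18 to −0.43 and day-18 mice read −1.66, −1.42, −2.36, −1.80 and −2.33, a difference of −0.84 ± 0.19 (1.8-fold lower, adjusted p = 8.61e-04). The fall kept its direction under all 40 alternative settings, from −1.51 to −0.35 in wild type, but was not called with median scaling in either genotype or with another background correction in wild type.

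The other COPII members gave no call in the fit to all 24 arrays. Sec24a and Sec24d, cargo-binding adaptors, differed by 0.29 ± 0.28 and 0.64 ± 0.28 in wild type, and Sec31a, of the outer cage, by 0.47 ± 0.25. The GTPases Sar1a and Sar1b, which start coat assembly, differed by −0.16 ± 0.24 and 0.56 ± 0.37. Limma adjusted p over these 5 was 0.0714 or more in wild type and 0.0766 or more in the knock-in. With the probes kept for a gene averaged, Sec31a was called higher in both genotypes. Without mouse 376, Sec31a and Sec24d were called higher in wild type. Under quantile normalization Sar1a was called lower in both genotypes.

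**Figure D2:**
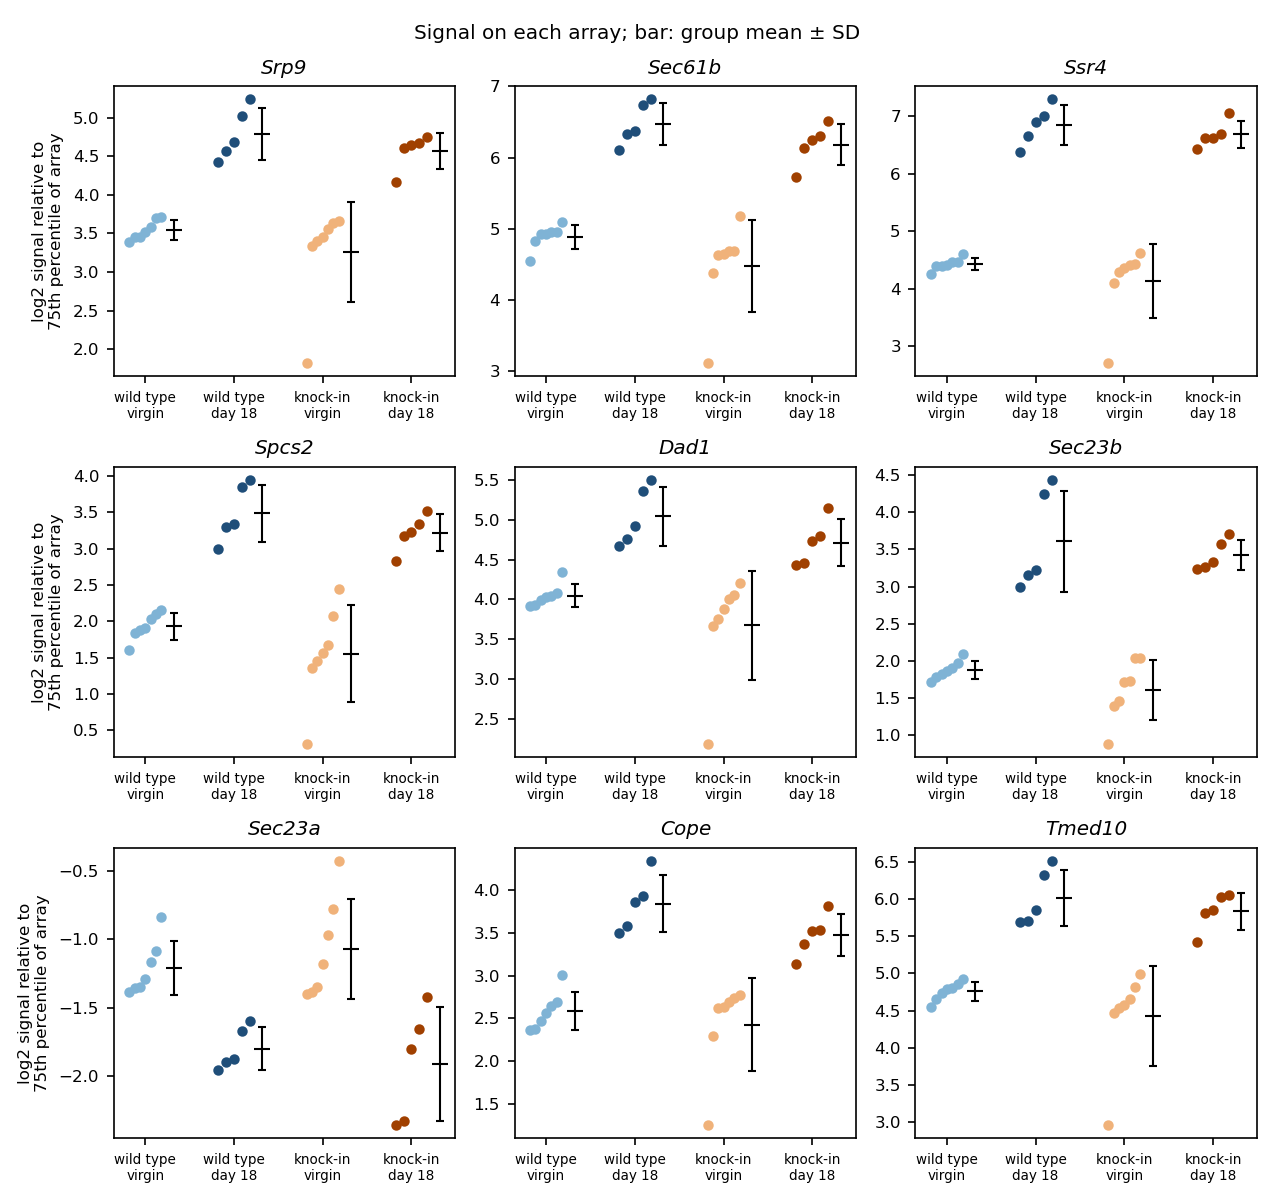
Log2 signal on each array (points, placed by value within their group) of 9 genes in the 4 groups, with the mean and SD beside each group. Day-18 points lie above virgin points for 8 genes and below them for Sec23a. The low knock-in virgin point of Ssr4, at 2.70, is mouse 376.

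COPI, the coat of retrograde vesicles, rose in 3 of 5 members in wild type and 4 of 5 in the knock-in. Cope, the epsilon subunit, rose most: wild-type virgins lay within 2.36 and 3.01 (median 2.56), and the day-18 arrays read 4.34, 3.58, 3.93, 3.50 and 3.86. None of these overlapped, and the difference was 1.26 ± 0.22 (2.39-fold, limma adjusted p = 8.63e-05). The knock-in went from between 1.25 and 2.77 (median 2.63) to 3.53, 3.81, 3.14, 3.52 and 3.37, by 1.04 ± 0.22 (adjusted p = 5.54e-04). Copb2, the beta-prime subunit that binds cargo signals, rose by 0.68 ± 0.24 and 0.73 ± 0.24, and Copg1, the gamma subunit, by 0.61 ± 0.22 and 0.73 ± 0.22. Copb1, the beta subunit, differed least, by 0.34 ± 0.20 in wild type (means 2.43 ± 0.15 SD and 2.76 ± 0.20 SD; limma adjusted p = 0.195) and 0.39 ± 0.20 in the knock-in.

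Copa, the alpha subunit, was the only member called in one genotype and not in the other when all 24 arrays were fitted. Wild-type virgins ran from 3.44 over 3.49 to 3.76 and wild-type day-18 mice read 4.46, 3.89, 4.27, 4.03 and 3.96, so that the groups did not overlap, yet the difference of 0.56 ± 0.25 missed the threshold (limma adjusted p = 0.0743). In the knock-in, virgins ran from 1.64 over 3.48 to 3.82 and day-18 mice read 3.99, 3.88, 3.83, 3.75 and 4.13. There the groups overlapped and the difference of 0.66 ± 0.25 passed (limma adjusted p = 0.0363). The lowest of these virgin values, 1.64, was that of mouse 376. Without that array Copa was called higher in both genotypes. The stage differences of the genotypes were 0.09 ± 0.35 apart, with limma adjusted p = 1, so no difference between genotypes was detected for Copa.

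Of the cargo receptors, Tmed10 and Tmed2, p24 proteins that cycle between ER and Golgi in both coats, rose and Kdelr2 was not called. Tmed10 read 4.55 to 4.92 (median 4.79) in wild-type virgins and 6.51, 5.71, 6.32, 5.86 and 5.69 at day 18, a difference of 1.26 ± 0.25 (2.4-fold, limma adjusted p = 2.80e-04) without overlap; its probe also lists transcripts of the pseudogene Tmed10-ps. Knock-in virgins ran from 2.96 over 4.57 to 4.99 and day-18 mice read 6.05, 6.03, 5.81, 5.42 and 5.86, a difference of 1.41 ± 0.25. Tmed2 rose by 0.77 ± 0.23 and 0.81 ± 0.23. Kdelr2, a receptor that returns ER residents by their KDEL signal, had means of 2.44 ± 0.21 (SD, n = 7) and 2.93 ± 0.41 (SD, n = 5) in wild type, a difference of 0.49 ± 0.22 (limma adjusted p = 0.0828), and differed by 0.33 ± 0.22 in the knock-in.

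The ranges of the virgin and day-18 arrays did not overlap for 25 members that were higher and 1 that was lower at day 18 in wild type, beside 20.3% and 18.9% of all genes. The knock-in had 17 and 1 such members, beside 12.6% and 7.65% of all genes. Both stages were on each of the 3 slides, and within slides all 27 members called in wild type kept their sign on every slide. All 28 called in the knock-in did so on slides 1 and 2, and 27 on slide 3. These members were called on the same arrays, so the kept signs are no separate support. The share over all called genes was not computed. The median member difference within slides 1, 2 and 3 was 1.22, 0.68 and 0.52 in wild type and 1.25, 0.68 and 0.35 in the knock-in; slide 1 held 1 wild-type day-18 array and slide 3 held 1 knock-in day-18 array.

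**Figure D3:**
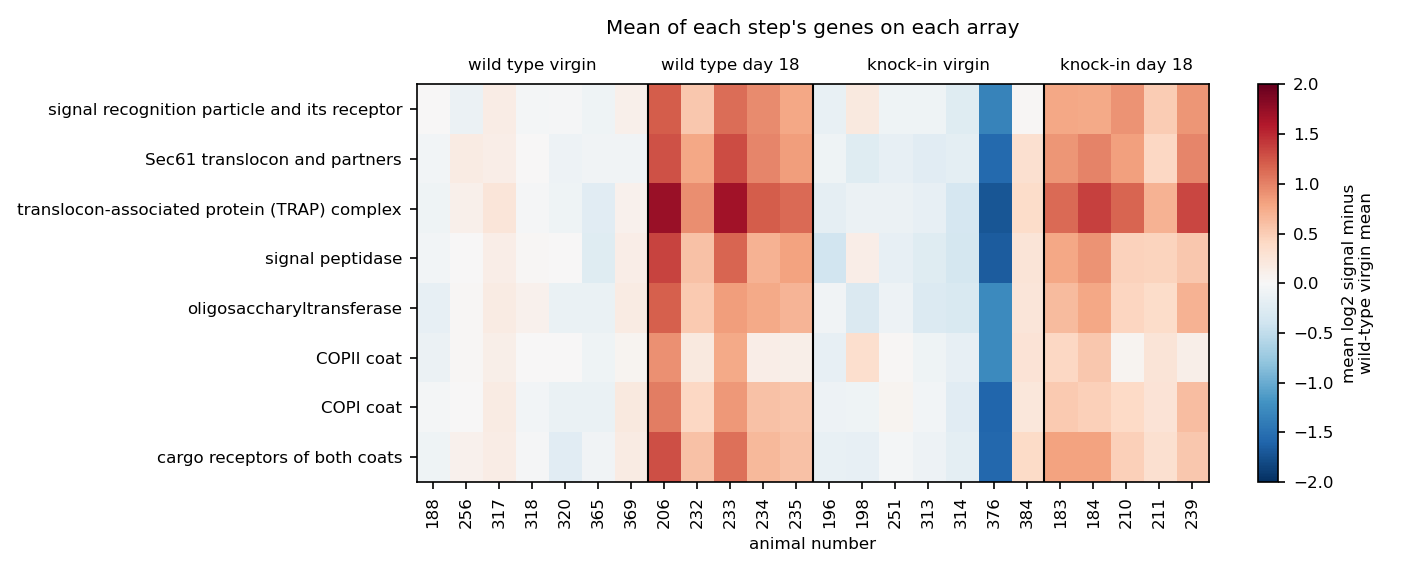
Mean log2 signal of each step's genes on every array (columns, animal number below) minus the wild-type virgin mean of that step; red is higher, blue lower, on a scale from −2 to 2. All day-18 arrays are red for the TRAP complex, mice 206 and 233 most, the COPII row is the palest, and mouse 376 is blue in every row.

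The ratio of signals within an array was compared between stages for 13 pairs of paralogs in which at least 1 gene was a member. A ratio within an array does not depend on how arrays are scaled; it shows unequal change, not which gene changed. In 4 pairs the genes had been called in opposite directions, which fixes the direction of the ratio, so these are described without a test. The other 9 pairs were tested by the exact two-sided permutation of the stage labels within a genotype (792 splits, smallest p 0.0013), adjusted over 18 tests. The pairs were chosen and the test added after the gene values had been seen.

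Among the described pairs, the log2 ratio of Sec23b to Sec23a was 2.56 to 3.33 in wild-type virgins and 4.66 to 6.12 at day 18, a change of 2.32 (5-fold). In the knock-in it was 1.66 to 3.21 and then 5.06 to 5.66, a change of 2.66 (6.31-fold), or 2.49 without mouse 376. The ratio of Sec61a1 to Sec61a2, a form of the pore subunit that fell, changed by 1.90 in wild type and 1.96 in the knock-in. For Tram1 against Tram2 the day-18 values were 3.11 to 4.0 in wild type and 1.77 to 3.41 in the knock-in, against 1.31 or less in all virgins, changes of 2.48 and 1.81. The ratio of Tram1 to Tram1l1 is not given, since Tram1l1 was above background on only 1 of 5 day-18 arrays in each genotype.

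Of the tested pairs, Kdelr2, itself not called, gained on Kdelr3 by 2.08 and 2.0 (exact adjusted p = 0.0057 in both). Its ratio to Kdelr1 changed by −0.10 and −0.11 (exact adjusted p = 0.511 and 0.543). Stt3a gained on Stt3b, the catalytic subunit of the other form of the enzyme, by 0.85 and 1.07 (exact adjusted p = 0.0057 and 0.0422). Sec31a gained 1.61 on Sec31b in wild type (exact adjusted p = 0.0057); the change in the knock-in was 1.64 (exact adjusted p = 0.214), or 0.89 without mouse 376. Sec31b was above background on 4 of 5 day-18 arrays in each genotype.

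Smaller changes were seen in the GTPase and adaptor pairs. Sar1b gained on Sar1a by 0.72 in wild type (exact adjusted p = 0.0422), and the change in the knock-in was 0.58 (exact adjusted p = 0.214). Among virgins 1 array of each genotype stood apart, mouse 320 at −1.83 in wild type and mouse 198 at −1.29 in the knock-in. The remaining knock-in virgins read −3.48 to −2.94, and the knock-in day-18 mice −2.74 to −1.68. The ratio was not tested without mouse 198. Sec24a gained on Sec24b by 0.41 in wild type (exact adjusted p = 0.0227), and the change in the knock-in was 0.34 (exact adjusted p = 0.132). Copg1 against Copg2 changed by 0.36 in wild type and 0.57 in the knock-in, and neither passed (exact adjusted p = 0.121 and 0.0597). For the cargo adaptors, Sec24d against Sec24a changed by 0.35 and 0.13 and Sec24d against Sec24c by 0.19 and −0.25, with exact adjusted p of 0.234 or more. Without mouse 376 no call of these pairs changed.

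**Figure D4:**
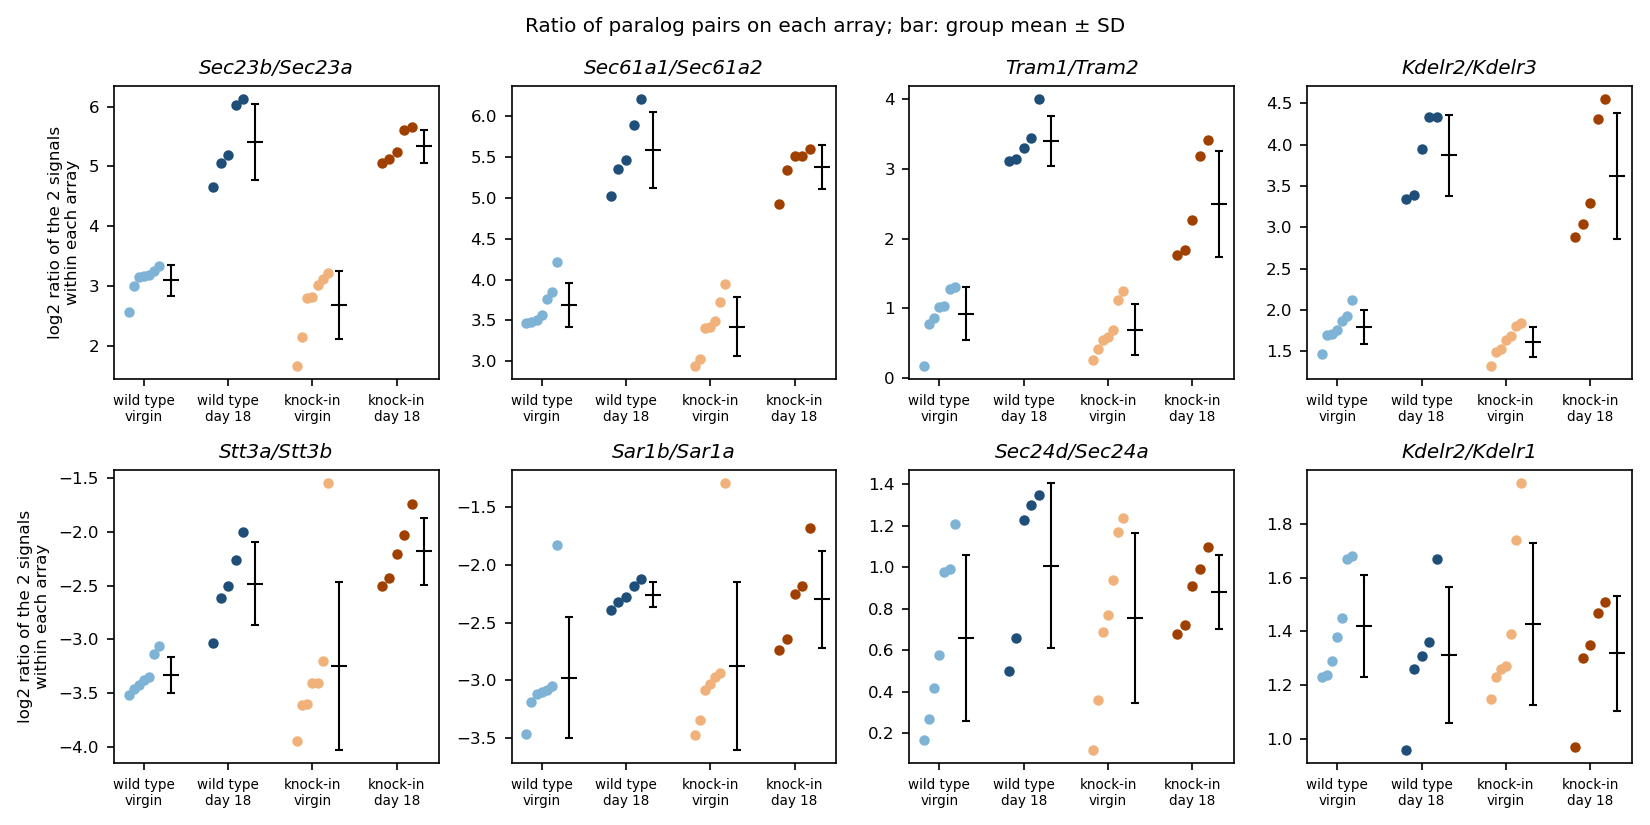
Log2 ratio of the signals of 8 paralog pairs on each array (points, placed by value within their group), with the mean and SD beside each group; levels of a ratio depend on the probes and only its change is read. The upper pairs separate virgin from day-18 arrays in both genotypes, for Sec23b/Sec23a by 2.32 and 2.66 on average, whereas Kdelr2/Kdelr1 overlaps.

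Beyond the members, 114 genes of the same pathway were listed and 111 tested. In wild type 39 were higher, 9 lower and 63 not called, with a median of 0.32, beside 20.9% higher and 20.9% lower over all genes. In the knock-in 48 were higher, 9 lower and 54 not called, with a median of 0.48, beside 22.9% and 20.3%. Largest in wild type were Ap1m2, the epithelial form of the AP-1 clathrin adaptor, at 3.27 ± 0.75, Arfgap3, a COPI GTPase activator, at 2.69 ± 0.29, and Sec11c, a catalytic subunit of signal peptidase, at 2.55 ± 0.19. Next came the transcription factor Xbp1 at 2.07 ± 0.22, the cargo receptor Surf4 at 1.5 ± 0.24, the clathrin light chain Clta at 1.47 ± 0.25, and the oligosaccharyltransferase subunits Krtcap2 at 1.45 ± 0.23 and Tmem258 at 1.31 ± 0.24. Mcfd2, which works with the cargo receptor Lman1, followed at 1.18 ± 0.25 and Srp54b at 1.16 ± 0.22, with a probe shared with Srp54c.

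The 9 that fell in wild type included Tram1l1, whose size of fall is not given because only 1 of 5 day-18 arrays measured it above background, and the member paralogs Tram2 (−1.0 ± 0.17), Kdelr3 (−1.59 ± 0.34) and Sec61a2 (−0.55 ± 0.16). The others were Creb3l3 (−1.18 ± 0.38), the lectin-type receptor Lman2l (−1.10 ± 0.22), Tmed8 (−1.08 ± 0.25), the adaptor subunit Ap1s2 (−0.86 ± 0.28) and the chaperone cofactor Sgta (−0.65 ± 0.23). Sgta was the one of the 9 that was not called in the knock-in, at −0.46 ± 0.23 (limma adjusted p = 0.108).

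Among the transcription factors that drive secretory genes, 3 of 8 rose, 1 fell and 4 were not called, in each genotype, beside 41.8% and 43.2% of all genes called. Xbp1, a factor of the unfolded protein response, rose by 2.07 ± 0.22 and 2.45 ± 0.22 (limma adjusted p = 1.74e-07 and 1.45e-08). Creb3l1 and Creb3, membrane-bound factors released at the Golgi, rose by 0.82 ± 0.22 and 0.58 ± 0.19 in wild type and 0.93 ± 0.22 and 0.73 ± 0.19 in the knock-in. Creb3l3 fell by 1.23 on the log2 scale in the knock-in. Not called were Atf6 at 0.11 ± 0.14 in both, Atf6b at −0.07 ± 0.17 and −0.11 ± 0.17, Creb3l2 at 0.16 ± 0.25 and 0.45 ± 0.25, and Creb3l4 at −0.56 ± 0.44 and −0.18 ± 0.44.

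The 250 bases before their start sites were searched, on both strands, for letters that such factors are known to bind. RefSeq's promoter table (GRCm38.p6) held 32 of the 40 members. The unfolded protein response element TGACGTGG was found in 2 of the 32 (6.25%) and in 0.603% of the 27025 genes in the table. Its core, CCACGT, which overlaps it, was found in 10 of 32 (31.2%) beside 7.84% of all genes. The ER stress response element, CCAAT, then 9 bases, then CCACG, was found in none of the 32, beside 0.13% of all genes, and TGACGTCA in 1 of 32 (3.12%) beside 1.77%. The median GC content of the member windows was 58% and that of all windows 52.4%. A match is a description of letters and no evidence of binding.

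Among members with a window, 3 of the 19 higher in wild type held the core (15.8%) and 7 of the 12 not called (58.3%). This difference was not tested, and it depends on the array of mouse 376. Without it Ssr3, Spcs1, Sec24d, Sec31a and Copb1, which hold the core, were called higher in wild type. So were Srp14, Sec62 and Copa, which do not hold it. Shown are the last 100 bases before the start of the 8 members with a match there, plus Ssr4, the largest rise, which had none of the motifs above; capitals mark TGACGTGG or CCACGT on either strand. The windows are Sec24d (chr3:123267396-123267495, plus strand), Copb1 (chr7:114254681-114254780, minus), Ssr1 (chr13:37994209-37994308, minus), Copb2 (chr9:98563631-98563730, plus), Tmed10 (chr12:85374718-85374817, minus), Sec63 (chr10:42761396-42761495, plus), Spcs1 (chr14:31001667-31001766, minus), Sec31a (chr5:100410024-100410123, minus) and Ssr4 (chrX:73786923-73787022, plus), each written 5′ to 3′ on the gene's strand.
Sec24d: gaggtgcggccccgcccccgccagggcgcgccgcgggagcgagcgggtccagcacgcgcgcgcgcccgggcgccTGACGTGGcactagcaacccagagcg
Copb1: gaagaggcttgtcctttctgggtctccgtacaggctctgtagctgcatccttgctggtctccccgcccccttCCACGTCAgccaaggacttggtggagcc
Ssr1: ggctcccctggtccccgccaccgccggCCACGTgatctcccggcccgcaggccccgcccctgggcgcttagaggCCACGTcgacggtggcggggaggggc
Copb2: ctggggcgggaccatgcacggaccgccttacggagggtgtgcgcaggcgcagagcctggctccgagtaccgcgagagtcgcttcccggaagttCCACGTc
Tmed10: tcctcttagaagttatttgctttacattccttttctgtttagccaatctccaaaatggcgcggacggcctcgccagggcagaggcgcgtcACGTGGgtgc
Sec63: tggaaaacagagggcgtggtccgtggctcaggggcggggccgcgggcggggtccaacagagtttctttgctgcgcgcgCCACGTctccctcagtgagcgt
Spcs1: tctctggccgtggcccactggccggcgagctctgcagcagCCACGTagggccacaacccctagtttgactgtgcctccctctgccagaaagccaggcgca
Sec31a: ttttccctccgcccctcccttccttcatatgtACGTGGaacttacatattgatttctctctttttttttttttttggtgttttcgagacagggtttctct
Ssr4: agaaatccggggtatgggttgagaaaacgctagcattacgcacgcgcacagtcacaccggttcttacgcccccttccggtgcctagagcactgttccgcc

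Sec24d, with the full element 26 to 19 bases before its start, differed by 0.64 ± 0.28 in wild type and was not called. Copb1, with it on the other strand 28 to 21 bases before its start, differed by 0.34 ± 0.20. The core lay in Ssr1 at 73 to 68 and at 26 to 21 bases, in Copb2 at 7 to 2, in Tmed10 at 10 to 5, in Sec63 at 22 to 17, in Spcs1 at 60 to 55 and in Sec31a at 68 to 63 bases before the start. Sec31a has another annotated start, whose window (chr5:100416235-100416484) held none of these letters. Ssr1, Copb2 and Tmed10 rose, and the standing probes of Sec63, Spcs1 and Sec31a were not called with all arrays. Without mouse 376, Sec24d, Copb1, Spcs1 and Sec31a were called higher in wild type and Sec63 was not.

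The design also compares the alleles at each stage, and no member was called between genotypes. In virgins 0 of 40 passed, beside 0% of all genes, and 1 had an unadjusted p under 0.05; at day 18 both counts were 0, beside 0% of all genes. No setting tried called any member. Averaged over the stages 0 passed and 3 had an unadjusted p under 0.05, and for the difference between stages both counts were 0, with 0% of all genes called in each. The genotype and stage comparisons share groups and are not independent.

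The member differences, knock-in minus wild type, were below 0 in 39 of 40 genes in virgins (median −0.28) and in 39 of 40 at day 18 (median −0.20), beside medians over all genes of −0.05 and −0.00. In virgins the luminal markers were below 0 in 9 of 10 cases (median −0.99) and the milk protein markers in 6 of 6 (median −2.71). The mean of the luminal list was −3.41 for mouse 198, a knock-in virgin. The remaining knock-in virgins read 0.86 to 1.83, inside the wild-type range of 0.05 to 2.16. Milk protein means scattered from −4.90 to 3.87 among wild-type virgins and from −4.10 to −0.01 among knock-in ones. At day 18 the luminal and milk protein medians were −0.01 and 0.05, but other marker lists were not as close. Skeletal muscle markers were above 0 in 5 of 6 cases in virgins and 6 of 6 at day 18. Their mean ran from −4.18 to 0.54 in wild-type and −4.03 to 5.56 in knock-in day-18 mice. T cell markers were above 0 in 5 of 5 cases at both stages, and the white adipocyte median at day 18 was −0.42. No marker of these lists was called between genotypes at either stage. The part of these markers in the members' differences was not tested. Without mouse 376 the virgin median of the members was −0.06, with 32 of 40 below 0. The mean over all members was 2.61 to 2.88 in wild-type virgins and 1.29 to 2.97 in knock-in virgins, where 1.29 was mouse 376. At day 18 it was 3.27 to 3.94 in wild type and 3.13 to 3.52 in the knock-in, overlapping groups. Within slides 1, 2 and 3 the median member difference was −0.60, −0.16 and 0.05 in virgins and −0.52, −0.21 and −0.22 at day 18. Mouse 376 was on slide 1.

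The smallest p values of the averaged contrast were those of 3 members that missed the threshold. Rpn1 was 4.48 to 4.83 (median 4.68) in wild-type virgins and 3.02 to 5.01 (median 4.31) in knock-in virgins; at day 18 wild type read 5.65, 5.09, 5.77, 5.42 and 5.29 and knock-in 5.12, 5.13, 5.28, 4.77 and 5.68. Its averaged difference was −0.34 ± 0.16 (limma unadjusted p = 0.0455, adjusted p = 0.651), with overlap at both stages. Srp72 differed by −0.29 ± 0.14 (unadjusted p = 0.0459) and Ddost by −0.28 ± 0.13 (unadjusted p = 0.0469), with the same limma adjusted p. Without mouse 376 the virgin difference of Rpn1 was −0.24, with an interval from −0.55 to 0.07.

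The intervals show what the design could miss. Over the 40 members, 95% intervals of the genotype difference reached from −0.88 to 0.54 in virgins and from −1.04 to 0.67 at day 18. At day 18, Spcs1 had the lowest difference at −0.44, with an interval from −1.04 to 0.17, and without mouse 376 the interval was −0.75 to −0.12 at an adjusted p of 0.46 (limma). The stage differences of the genotypes were at most 0.34 apart for any member, for Srp19 and Sec63, with limma adjusted p = 1.

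**Figure D5:**
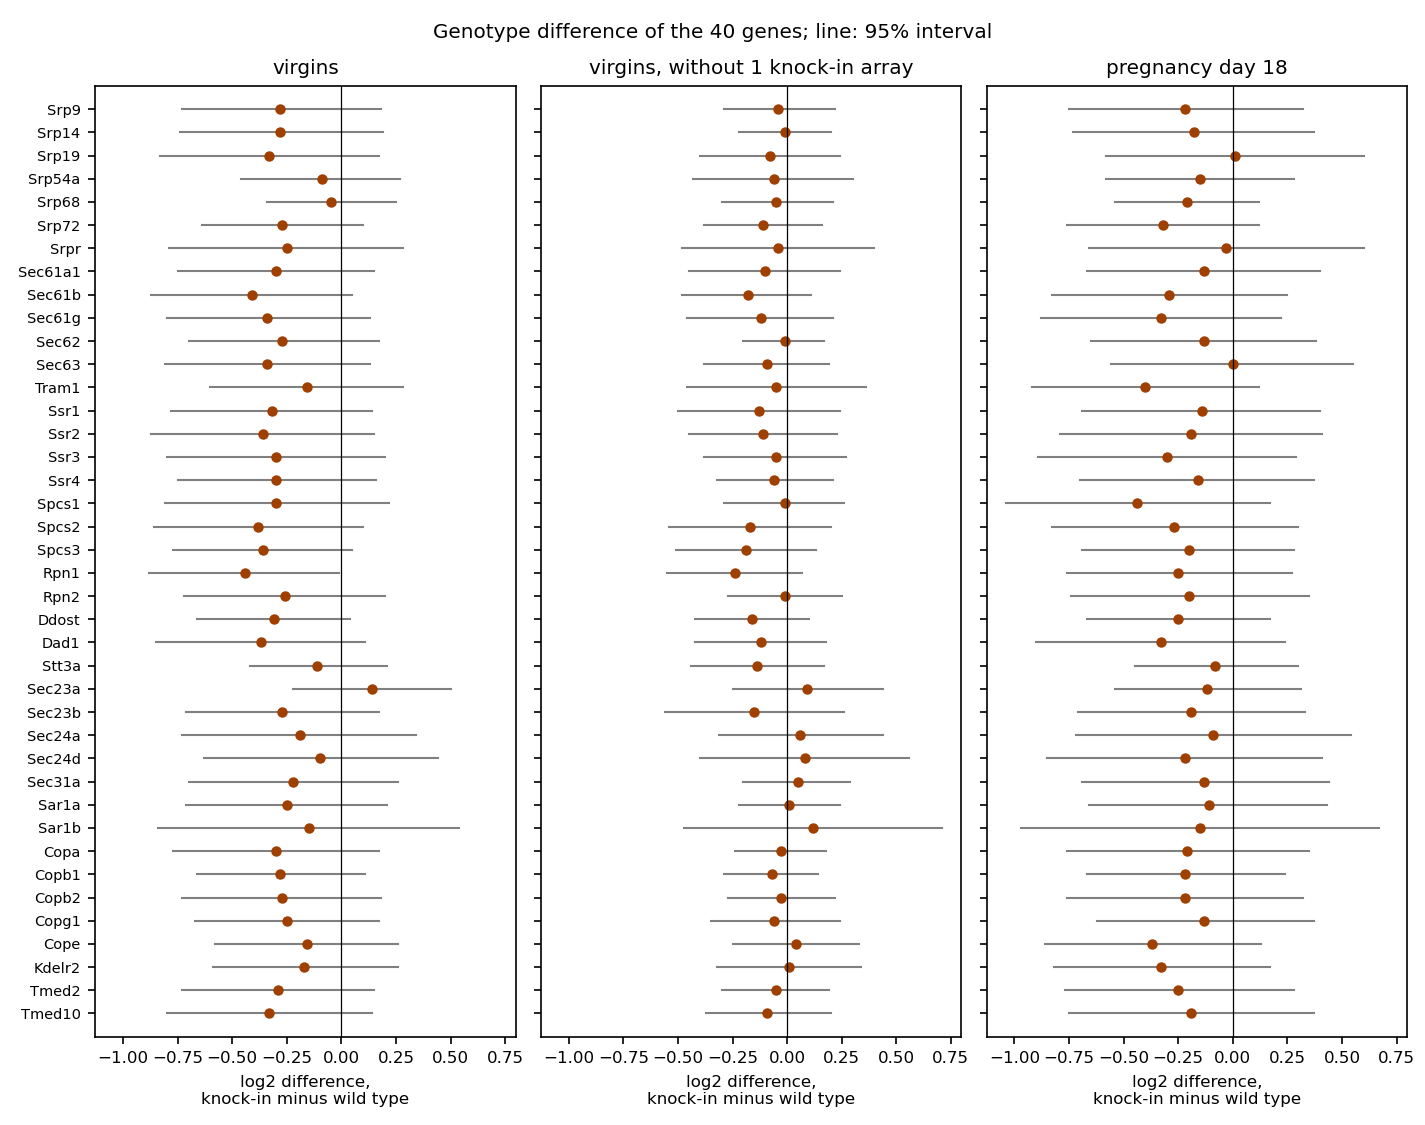
Knock-in minus wild-type difference (log2, x axis; lines are 95% intervals) of the 40 genes in virgins, in virgins without mouse 376, and at day 18. The virgin points centre on −0.28 and move to a median of −0.06 without that array, the day-18 points centre on −0.20, and nearly all intervals cross 0.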

How the data were processed

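The deposited files, 1 per animal, hold spot intensities that the authors extracted with Agilent Feature Extraction 12.0.3.2 (per the submitters' processing notes and the file headers) from 1 colour channel; probe coordinates are mm9. Per the file headers the processed signal had spatial and multiplicative detrending, with surrogate values at low signal; it is not scaled between arrays. The authors' deposited series-wide values are log10 of the same intensities: over 62969 features the largest difference was 0.0050. The deposited quality calls (0 or 1) were used to judge background and outliers.

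Outlier spots were set to missing, replicate spots averaged on log2, and each array's 75th percentile over non-control spots subtracted. Probes well above background on 80% of the arrays of at least 1 group were kept (35117), and the probe with the highest mean stood for its gene (22382 genes, 162 missing values). All 40 members passed. A mean for each group was fitted to the 24 arrays with limma 3.58.1 (R 4.3.3), with eBayes and Benjamini-Hochberg adjustment over all genes. On simulated data for the wild-type stage comparison (22382 genes) the fit recovered 28 of 100 genes changed 2-fold and 77 of 100 changed 4-fold, with 10 wrong calls. No other simulated gene was changed, whereas 41.8% of all genes were called in the real comparison. These shares therefore do not measure recovery there.

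Members and lists were chosen with earlier results of these data known. Members with the largest or smallest difference of their step, called in 1 genotype only, or with opposed probes are described by group; the 3 smallest p values where no genotype difference passed; of the wider list the 10 largest rises, the largest falls, at most 10, and every transcription factor. Other named members and the paralog pairs were chosen after their values were seen. Scaling, background, filter, probe, slide, weight and left-out arrays were varied.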

Additional observations from a re-analysis of the deposited data

Results flagged for a closer look

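In 29 of the 160 groups of member values examined, the lowest or highest array stood apart from the rest of its group by Dixon's criterion; chance gives about 1 in 20. In 24 of the 29 it was mouse 376, lowest among the knock-in virgins. Its log2 signals were 1.82 for Srp9 (next lowest 3.34), 2.10 for Srp14, 0.70 for Srp19 and 0.46 for Srp72 in the signal recognition particle. In the channel and the TRAP complex they were 2.41 for Sec61a1, 3.11 for Sec61b, 1.41 for Sec62, −0.16 for Sec63, 3.0 for Ssr2, 2.35 for Ssr3 and 2.70 for Ssr4. In signal peptidase and oligosaccharyltransferase they were 2.50 for Spcs1, 3.59 for Rpn2 and 2.18 for Dad1. In the coats and receptors they were −2.38 for Sec24a, 1.47 for Sec31a, 2.83 for Sar1a, 1.64 for Copa, 0.95 for Copb1, 1.06 for Copb2, 1.29 for Copg1, 1.25 for Cope, 2.87 for Tmed2 and 2.96 for Tmed10. That array also had the highest negative-control signal, 331.527; its part in these values was not tested.

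The other 5 were spread over 3 animals. Mouse 211, a knock-in day-18 animal, was lowest for Srp9 at 4.17 (next 4.61) and Sec62 at 3.08 (next 3.35). Mouse 320, a wild-type virgin, was lowest for Tram1 at 0.23 (next 0.63) and highest for Sar1b at 2.63 (next 1.66). Mouse 369, also a wild-type virgin, was highest for Dad1 at 4.34 (next 4.08).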

How the results depend on the processing

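Settings other than the scaling left the number of members called in the stage comparisons within 1.5 times 27 in wild type and 28 in the knock-in. Median scaling gave 11 in each, and spike-in scaling 10 and 8. Leaving out each array in turn gave 23 (without mouse 206) to 36 (without mouse 376) in wild type and 27 to 30 in the knock-in; the 4 genotype counts were 0 to 0 throughout. Under spike-in scaling the sign of called values, or of values called there, turned. In wild type these were Srp68 −0.08, Sec62 −0.67, Sec63 −0.74, Ssr1 −0.21, Spcs3 −0.30, Rpn1 −0.13, Rpn2 −0.08, Ddost −0.13, Stt3a −0.34, Copb1 −0.58, Copb2 −0.24, Copg1 −0.31 and Tmed2 −0.15. In the knock-in they were Srp68 −0.12, Spcs3 −0.06, Stt3a −0.23, Copa −0.18, Copb2 −0.11, Copg1 −0.11 and Tmed2 −0.02. Under that scaling the median of all genes was itself −0.91 in wild type and −0.78 in the knock-in. The members' median stood 0.54 to 0.82 above that of all genes in wild type and 0.59 to 0.90 in the knock-in, over 40 settings. Of the calls in wild type 5 held in every setting, and 15 of the other 22 were lost only under median or spike-in scaling; in the knock-in 6 held and 17 of 22 were lost only there. With normexp background the share of called genes that were higher was 59.6% in wild type and 61.5% in the knock-in, against 50.1% and 53%, and under spike-in scaling 7.71% and 10.5%. Leaving out mouse 376, leaving out mouse 198 and taking the percentile over the probes kept were chosen after seeing the data, and gave 36, 27 and 31 members in wild type and 28, 29 and 29 in the knock-in. Fitting only the groups compared gave 35 and 24 members, and array weights 36 and 30. No paired analysis was possible because every animal number in the labels is different.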
